A study of Mus musculus with 6 samples.

Results

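The IFIT and IFITM genes are 2 families of interferon-stimulated genes, and 7 of them, Ifit1, Ifit2, Ifit3, Ifit3b, Ifitm1, Ifitm2 and Ifitm3, are described here out of 23550 genes measured in mouse stomach RNA. They were chosen by gene symbol, as a group selected on the Riclin and saline values of these same libraries, which were known when the group was drawn up. Their differences between the treatments are therefore given as a description, with no test. Stomach RNA was sequenced in 6 libraries, 3 from mice gavaged with normal saline (replicates 1, 2 and 4) and 3 from mice gavaged with Riclin (replicates 2, 3 and 4). Riclin is a soluble dietary fibre, a bacterial polysaccharide, and the experiment addresses its effect on the gastric mucosal defence barrier. Gavage lasted 14 days in both groups, and the labels of both carry the figure of 20 mg/kg. The sources used here do not give strain, sex or age, or whether these mice were among those of the study that received ethanol. Nor do the labels say that each library came from a separate animal, so the errors below measure the spread between these libraries and may be technical.

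IFIT and IFITM proteins act at different stages of viral infection. Interferons bind their receptors and activate the kinases JAK1 and TYK2, which phosphorylate STAT proteins. STAT2 and IRF9 are parts of the complex ISGF3, which binds interferon-stimulated response elements near the start of its target genes. IFIT proteins are cytoplasmic and are built of tetratricopeptide repeats. IFIT1 binds the 5′ end of RNA that lacks the cap methylation of the host's own messenger RNA and blocks its translation. IFITM proteins are small membrane proteins that hinder the fusion of viral and cellular membranes. IFITM3 does so mainly in endosomes, and IFITM1 largely at the cell surface.

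The 4 Ifit genes lie together on chromosome 19 and the 3 Ifitm genes described here on chromosome 7 (GENCODE M21, GRCm38, the assembly that mm10 names). Ifit2 (chr19:34550694-34576419), Ifit3 (chr19:34583531-34588731), Ifit3b (chr19:34607970-34613401) and Ifit1 (chr19:34640871-34650009) are on the plus strand. With their relatives Ifit1bl1 and Ifit1bl2 on the minus strand, these 6 genes span 99.3 kb. Ifitm2 (chr7:140954837-140955987, minus strand), Ifitm1 (chr7:140967221-140969825, plus strand) and Ifitm3 (chr7:141009586-141010770, minus strand) span 55.9 kb. All 7 are annotated as protein-coding. Ifitm2 overlaps the annotated gene Gm45717 on the same strand, and the other 6 overlap no gene.

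Members of a family share transcript sequence, which can leave reads of 1 gene assigned to another. Of the stretches of 50 bases in the annotated Ifit3 transcript, 51.2% also occur in Ifit3b, and 44.5% of those of Ifit3b occur in Ifit3. For Ifitm2, 48.5% occur in other genes, and 36.1% occur in Gm45717. The share was 10.0% for Ifitm3, 7.13% for Ifit1 and 5.02% for Ifitm1. No stretch of Ifit2 was found in another gene. The values of Ifit3, Ifit3b and Ifitm2 are therefore uncertain as to which gene the reads came from, since how the authors counted such reads is not stated. Gene lengths implied by the authors' FPKM values were 2678 bases for Ifit3 and 1666 for Ifitm2. The annotated transcripts are shorter, with 1696 and 606 stretches, so the gene models behind the values differ from those searched.

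The promoters are shown because ISGF3 acts through them, and because both Ifit3 genes carry the same promoter stretch. A response element core, GAAANNGAA or TTCNNTTTC on the other strand, was searched on both strands, with overlapping matches counted, in windows of 300 bases that reach from upstream of each RefSeq start to 50 bases after it (GRCm38.p6). All 7 genes were found in that table. The core occurred in 8.56% of all 32851 windows of this length, in 8.37% of the 9388 tested genes with a window, and in 17 of 38 other interferon-stimulated genes. Among the members it occurred in 3 of 4 Ifit genes and 2 of 3 Ifitm genes, and it was not found in the windows of Ifit2 or Ifitm1. The Ifitm1 window (chr7:140967826-140968125) lies inside the GENCODE gene, so the bases before that gene's annotated start were not searched. Each sequence below reads 5′ to 3′ along its gene's own strand, with matches in capitals. The stretches are Ifit1 (chr19:34640765-34640828, plus strand), Ifit3 (chr19:34583359-34583450, plus strand), Ifit3b (chr19:34607755-34607846, plus strand), Ifitm2 (chr7:140955984-140956022, minus strand) and Ifitm3 (chr7:141010716-141010743, minus strand).
Ifit1: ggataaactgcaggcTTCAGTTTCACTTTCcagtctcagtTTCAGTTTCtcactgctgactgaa
Ifit3: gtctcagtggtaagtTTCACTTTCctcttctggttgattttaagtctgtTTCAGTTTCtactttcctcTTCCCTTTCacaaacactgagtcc
Ifit3b: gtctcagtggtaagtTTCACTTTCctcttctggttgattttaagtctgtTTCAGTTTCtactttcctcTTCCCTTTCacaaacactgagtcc
Ifitm2: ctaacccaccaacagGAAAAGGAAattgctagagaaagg
Ifitm3: gGAAAAGGAAacttctgaGAAACCGAAa

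The Ifit3 and Ifit3b stretches were identical in 92 of 92 bases, each with 3 matches. Ifit1 also had 3 matches, of which the first pair overlap, so that they cover 24 bases. The same 3 sites fall in the window of Ifit1bl2, which is read in the opposite direction from a RefSeq start 146 bases away. Ifitm2 had 1 match before its start, and Ifitm3 had 2, both just after its start. A match is a description of the letters, and binding was not measured.

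Markers of parietal, chief and surface mucous cells were abundant in all 6 libraries, which are labelled stomach (summed FPKM of at least 3153, 33652 and 58057). FPKM values are fragment numbers scaled to gene length and to the size of the library. Totals implied by the values were 30884067 to 40050267 reads per library, a range of 1.30-fold, and the 7 genes together took 0.0210% to 0.0593% of reads. Riclin replicate 3 stood apart from the other libraries. The summed FPKM of 19 pancreatic acinar genes was 238 there, against 37740 to 154340 in the other 5. The log2 differences that rest most on that library are given with and without it. Tests took in the 11738 genes that reached an FPKM of 1 in 3 or more libraries. All 7 members passed this filter, with an FPKM above 1 in every library.

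The 7 genes differed widely in level. Mean FPKM over the 6 libraries was 163 for Ifitm3, above 97.1% of tested genes, and 47.7 for Ifitm2, above 90.5%. Ifit1 followed at 33.05, then Ifit3 at 13.9, Ifitm1 at 11.6, Ifit3b at 7.46 and Ifit2 at 2.55, which was above 22.2% of tested genes. Ifitm3 exceeded Ifitm2 in FPKM in every library. The implied lengths were 648 bases for Ifitm3 and 1666 for Ifitm2, more than the annotated Ifitm2 gene spans. In reads, Ifitm2 was above Ifitm3 in saline replicate 1 (3107 against 2691) and saline replicate 2 (3091 against 2834). The order of levels thus depends on the lengths used. Ifit3 exceeded Ifit3b, and Ifit3b exceeded Ifit2, in every library, although their ranges across libraries overlapped. Ifit1 was below Ifitm2 except in Riclin replicate 3, and the place of Ifitm1 among Ifit1, Ifit3 and Ifit3b differed between libraries.

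Ifit1, the RNA-cap sensor of the family, read 24.8, 39.5 and 10.2 FPKM in the saline libraries (replicates 1, 2 and 4). The Riclin libraries (replicates 2, 3 and 4) read 24.6, 80.8 and 18.3. Riclin replicate 3 was the highest and saline replicate 4 the lowest, and the other 2 Riclin libraries lay within the saline range. The means were 24.9 ± 14.7 (SD, n = 3) and 41.2 ± 34.4 (SD, n = 3), a ratio of 1.66. On the log2(FPKM + 1) scale, which understates the difference of genes with low values, Riclin exceeded saline by 0.59 (SE 0.611). Without Riclin replicate 3 the ratio of means was 0.862 and the log2 difference -0.03. The log2 difference was 1.01 without saline replicate 2, 1.01 without Riclin replicate 4, and 0.08 without saline replicate 4. In bulk tissue, more cells that express the gene and more RNA per cell cannot be told apart.

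Ifit3, which in human cells stabilises IFIT1 on its RNA, read 9.14, 19.2 and 4.50 FPKM in the saline libraries and 7.999, 35.3 and 7.05 in the Riclin libraries, in the same order of replicates. The groups overlapped and ordered the libraries as Ifit1 did, from Riclin replicate 3 down through saline replicate 2 to saline replicate 4. The log2 difference was 0.41 (SE 0.644), or -0.29 without Riclin replicate 3. Leaving out saline replicate 4 gave -0.05, and leaving out saline replicate 2 gave 0.89. Leaving out Riclin replicate 2 or Riclin replicate 4 gave 0.72 and 0.80.

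Ifit3b, the near copy of Ifit3, read 5.82, 12.1 and 2.32 FPKM with saline and 4.76, 16.0 and 3.82 with Riclin. The order of the 6 libraries was again that of Ifit1. Its log2 difference was 0.23 (SE 0.588), -0.34 without Riclin replicate 3 and -0.28 without saline replicate 4. It was 0.71 without saline replicate 2, 0.44 without Riclin replicate 2 and 0.57 without Riclin replicate 4. Ifit3 exceeded Ifit3b by 1.57-fold to 2.202-fold within a library, a ratio that depends on how reads of their shared sequence were assigned.

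Ifit2, an IFIT protein that also binds RNA, had the lowest level of the 7, at 2.27, 3.17 and 1.69 FPKM with saline and 1.63, 4.59 and 1.93 with Riclin. Riclin replicate 3 was again the highest and saline replicate 2 next, but Riclin replicate 2 was the lowest. The log2 difference was 0.08 (SE 0.292). It was -0.26 when Riclin replicate 3 was left out and -0.08 when saline replicate 4 was, against 0.24 without saline replicate 2. Leaving out Riclin replicate 2 gave 0.28, and leaving out Riclin replicate 4 gave 0.21. It rested on 227 to 801 reads per library.

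Ifit1bl1, an IFIT relative in the cluster that is not among the 7, was the most abundant Ifit gene. It read 58.0, 128 and 36.7 FPKM with saline and 53.5, 179 and 27.3 with Riclin, again highest in Riclin replicate 3 and then saline replicate 2. Its mean difference was -0.02 on the log2 scale (SE 0.685) and -0.75 without Riclin replicate 3. Its other 4 relatives in the table did not pass the filter. Ifit1bl2 had 15 to 94 reads per library, Ifitm10 had 46 to 107, Ifitm6 had 4 to 26, and Ifitm5 had 0 to 6, where a count of 0 allows up to 3 reads. Ifitm7 was not analysed here.

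**Figure D1:**
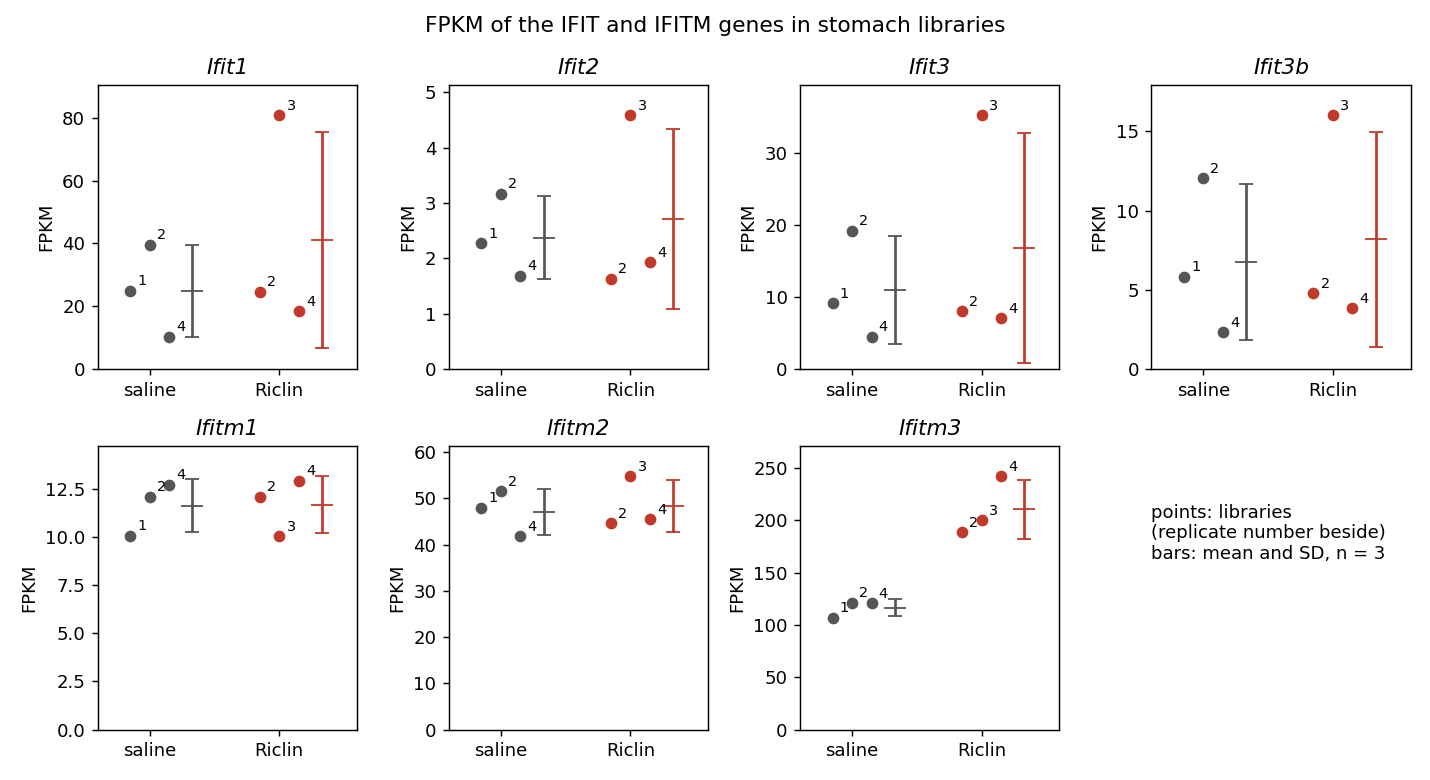
FPKM (vertical axes, each starting at 0) of the 7 genes in the 3 saline and 3 Riclin libraries; points are libraries with the replicate number beside them, and bars show mean and SD (n = 3). Ifitm3 is higher in every Riclin library (189 to 242) than in every saline library (107 to 121), whereas the 4 Ifit genes overlap and are highest in Riclin replicate 3.

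Ifitm3, the endosomal member, was the only 1 of the 7 whose groups did not overlap. It read 107, 121 and 121 FPKM in the saline libraries and 189, 200.2 and 242 in the Riclin libraries, in the same order. All 3 Riclin libraries were higher than all 3 saline libraries, and Riclin replicate 4 was the highest. The means were 116 ± 8.28 (SD, n = 3) and 210.4 ± 28.1 (SD, n = 3), a ratio of 1.81, and 1.85 without Riclin replicate 3. The log2 difference was 0.84 (SE 0.144), and it lay between 0.74 and 0.92 with each library left out in turn. The reads behind these values numbered 2420 to 2834 per library in saline and 4556 to 5967 in Riclin.

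Ifitm1, the cell-surface member, read 10.1, 12.1 and 12.7 FPKM with saline and 12.1, 10.0 and 12.9 with Riclin. The groups overlapped throughout, and here Riclin replicate 3 was the lowest library. The log2 difference was 0.01 (SE 0.130), and its sign changed in 6 of 16 alternatives, namely fits without saline replicate 1, Riclin replicate 2 or Riclin replicate 4, with either rescaling, and with pancreatic genes removed.

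Ifitm2, which like Ifitm3 is found in endosomes, read 48.0, 51.5 and 41.7 FPKM with saline and 44.7, 54.8 and 45.5 with Riclin. The groups overlapped, with Riclin replicate 3 highest and saline replicate 4 lowest. The log2 difference was 0.04 (SE 0.132), and its sign changed in 6 of 16 alternatives, among them fits without Riclin replicate 3 or saline replicate 4 and with median-of-ratios scaling.

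The ratio of Ifitm3 to Ifitm2 compares both genes within a library and does not depend on its scaling. Its size depends on the gene lengths used, which are the same in every library. It was 2.23, 2.36 and 2.897 with saline and 4.23, 3.65 and 5.32 with Riclin, with no overlap between the groups. The ratio of Ifitm3 to Ifitm1 was 9.52 to 10.6 with saline and 15.6 to 20.0 with Riclin. Ifitm3 was thus higher against both family members in the same libraries, a difference that the choice of genes on these values does not allow to be tested.

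Counts over the 7 genes are given beside those over all genes, and nothing is read from them because the members were chosen on these values. In limma's fit with Benjamini-Hochberg adjustment, 0 of 11738 genes (0.00%) passed the threshold of 0.05, and 0 of the 7 did. At an unadjusted p under 0.05 the fit held 693 genes (5.90%), and the voom method on recovered reads held 743 and called 0. Of the 7, 1 was among the 693. Groups did not overlap, with Riclin higher, for 955 genes (8.14%), and for 1 of the 7. Mean FPKM was at least 1.5-fold higher in Riclin for 305 genes (2.60%), and for Ifit1, Ifit3 and Ifitm3 of the 7, or Ifitm3 alone without Riclin replicate 3.

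**Figure D2:**
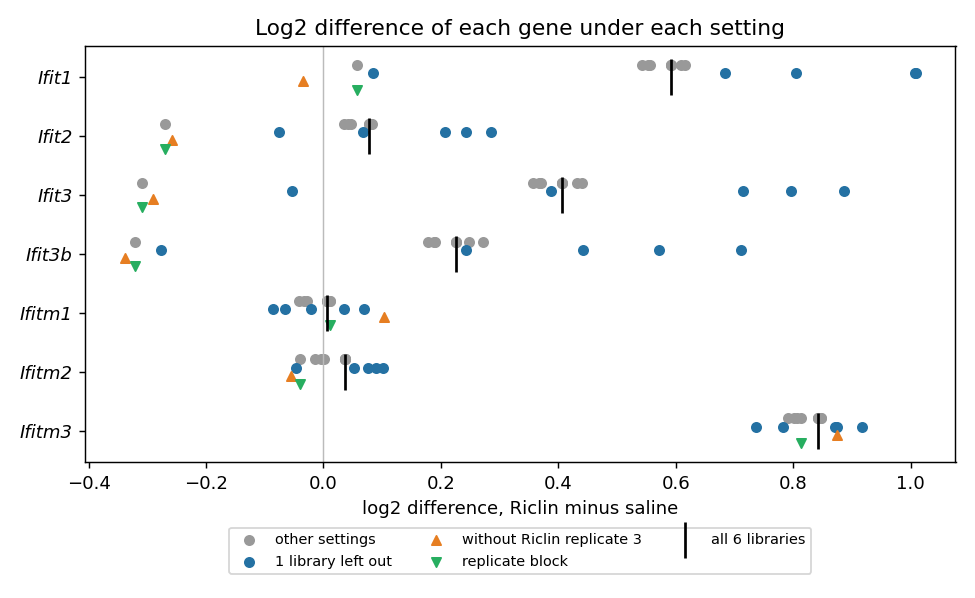
Log2 difference, Riclin minus saline (horizontal axis), of each gene in the fit of all 6 libraries (black bars) and under every alternative setting (points, with 1 library left out in blue, without Riclin replicate 3 in orange, the replicate block in green and the others in grey). Ifitm3 stays between 0.74 and 0.92, while the Ifit genes reach -0.34 to -0.03 without Riclin replicate 3.

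The Ifit genes varied together, and more than most genes, within each treatment. Between the highest and the lowest saline library, FPKM differed 3.86-fold for Ifit1, 4.27-fold for Ifit3 and 5.19-fold for Ifit3b. On the log2 scale these ranges exceeded those of 98.7%, 98.7% and 98.9% of tested genes, and the range of Ifit2 exceeded 90.2%. Within the Riclin libraries the 4 genes exceeded 97.1% to 99.1% of tested genes. The saline range of Ifitm3 exceeded that of 23.8%, and those of Ifitm1 and Ifitm2 exceeded 55.2% and 52.2%. Within the Riclin libraries the ranges of Ifitm3, Ifitm1 and Ifitm2 exceeded those of 70.7%, 66.4% and 57.0% of tested genes.

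Library by library, the 6 pairs of Ifit genes had Pearson r of 0.91 to 0.99 across the 6 libraries on the log2 scale, and 0.76 to 0.997 without Riclin replicate 3. These are descriptions, given without a p, of genes from shared libraries, of which Ifit3 and Ifit3b also share sequence. Ifitm2 followed the Ifit genes, with r of 0.96 to 0.98 against each, and 0.93 to 0.97 without Riclin replicate 3. Ifitm1 had r of -0.67 to -0.62 against the Ifit genes, but -0.38 to -0.26 without Riclin replicate 3. Ifitm3 had r of 0.06 to 0.23 against the Ifit genes, and -0.44 to -0.10 without that library. Against Ifitm1 its r was 0.20, and 0.59 without that library.

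**Figure D3:**
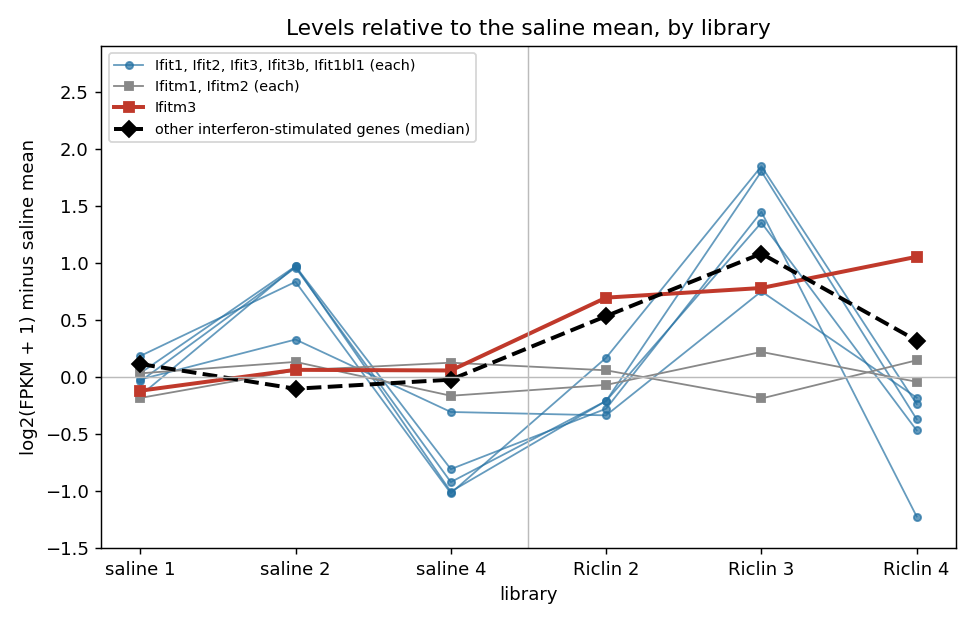
Log2(FPKM + 1) minus the saline mean (vertical axis) in each library, for the Ifit genes with Ifit1bl1, Ifitm1 and Ifitm2, Ifitm3, and the median of 43 other interferon-stimulated genes; lines join the values of 1 gene and carry no order. The Ifit genes lie above 0 in saline replicate 2 and Riclin replicate 3, whereas Ifitm3 is above 0.69 in all Riclin libraries.

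The rest of the pathway was listed by role. Of 21 interferon ligand genes 2 were in the table and none passed the filter. Ifne, an interferon of epithelia, had 53 reads in all and Ifnz had 1, and the other 19 were not analysed here. All 6 receptor subunits were tested, and 0 passed the adjusted threshold, with a median log2 difference of 0.02 beside 0.04 for all tested genes. Ifnar1 and Ifnar2, the type I receptor, differed by -0.02 and 0.05. Ifngr1 and Ifngr2, the type II receptor, differed by 0.00 and 0.02, and Ifnlr1 and Il10rb, the type III receptor, by 0.02 and 0.05.

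Irf9 and Stat2, whose products are parts of ISGF3, had higher levels in every Riclin library than in any saline library. Groups did not overlap in this direction for 955 (8.14%) of all 11738 tested genes. Irf9 read 13.5, 9.77 and 10.5 FPKM with saline and 17.4, 26.9 and 20.7 with Riclin (log2 difference 0.88, SE 0.179, limma adjusted p = 0.499). Stat2 read 12.2, 9.97 and 8.90 with saline and 16.3, 27.7 and 17.6 with Riclin (0.89, SE 0.206, limma adjusted p = 0.647). Neither passed the adjusted threshold, and in both Riclin replicate 3 was the highest library. Without that library the log2 difference was 0.72 for Irf9 and 0.67 for Stat2. The kinases Tyk2, Jak2 and Jak1 differed by 0.08, -0.03 and -0.00, and their groups overlapped.

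Among sensors and interferon regulatory factors, 8 of 11 tested genes were higher and 3 lower in Riclin, and 0 passed the adjusted threshold. Their median log2 difference was 0.29, and 0.23 without Riclin replicate 3. Over all 11738 tested genes, 7195 were higher and 4543 lower, with a median of 0.04. Irf7, which drives interferon transcription, read 44.4, 38.4 and 31.2 FPKM with saline and 83.7, 129 and 94.96 with Riclin (log2 difference 1.40, SE 0.194, limma adjusted p = 0.289). Ddx58, the RNA sensor RIG-I, differed by 1.01 (SE 0.200, limma adjusted p = 0.457), and its relative Dhx58 by 0.97 (SE 0.223, limma adjusted p = 0.647). Without Riclin replicate 3, Irf7, Ddx58 and Dhx58 differed by 1.22, 0.76 and 0.72. Among the inhibitors, Usp18, which restrains the type I receptor, read 15.6, 19.8 and 11.8 with saline and 25.1, 51.3 and 23.9 with Riclin (0.98, SE 0.302, limma adjusted p = 0.758). Socs1 and Socs3, which inhibit the kinases and cytokine receptors, differed by 0.32 and -0.36. Leaving out Riclin replicate 3 gave 0.63 for Usp18, 0.35 for Socs1 and -0.50 for Socs3.

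All 7 members were higher in Riclin in the fit of all 6 libraries, and 2 of the 7 without Riclin replicate 3. Of the 43 tested other interferon-stimulated genes, 41 were higher and 2 lower in Riclin. Their median log2 difference was 0.61, and 0.43 without Riclin replicate 3, when 34 were higher. Over all 11738 tested genes, 7195 were higher and 4543 lower, and 5963 were higher without Riclin replicate 3. None of the 43 passed the adjusted threshold. An unadjusted limma p under 0.05 was found for 28 of them, beside 693 (5.90%) of all tested genes. Groups did not overlap, with Riclin higher, for 28 of the 43, beside 955 (8.14%) of all tested genes. The list was chosen with earlier results of these data known, so these counts are a description. The Ifit median was 0.32, and -0.27 without Riclin replicate 3, and no difference between the lists was tested. Bst2, the tetherin that holds budding virus at the cell surface, read 49.4, 58.2 and 53.3 FPKM with saline and 119, 196 and 132 with Riclin (log2 difference 1.43, SE 0.193, limma adjusted p = 0.289). Lgals3bp, a secreted glycoprotein, differed by 0.96 (SE 0.158) and Sp100, a component of nuclear bodies, by 0.89 (SE 0.154), both with a limma adjusted p = 0.346. Without Riclin replicate 3, Bst2, Lgals3bp and Sp100 differed by 1.21, 0.85 and 0.73.

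The libraries that were high for the Ifit genes were compared with those that were high for the other targets. Saline replicate 2 was the highest saline library for 4 of 4 Ifit genes and for 7 of 43 other interferon-stimulated genes. Saline replicate 4 was the lowest for 4 of 4 and 17 of 43. Riclin replicate 3 was the highest of all libraries for 4 of 4 and 42 of 43. The 4 Ifit genes varied together, so a count of 4 of 4 does not stand for 4 separate observations. Shares over all tested genes were not computed, and the difference between these counts was not tested.

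**Figure D4:**
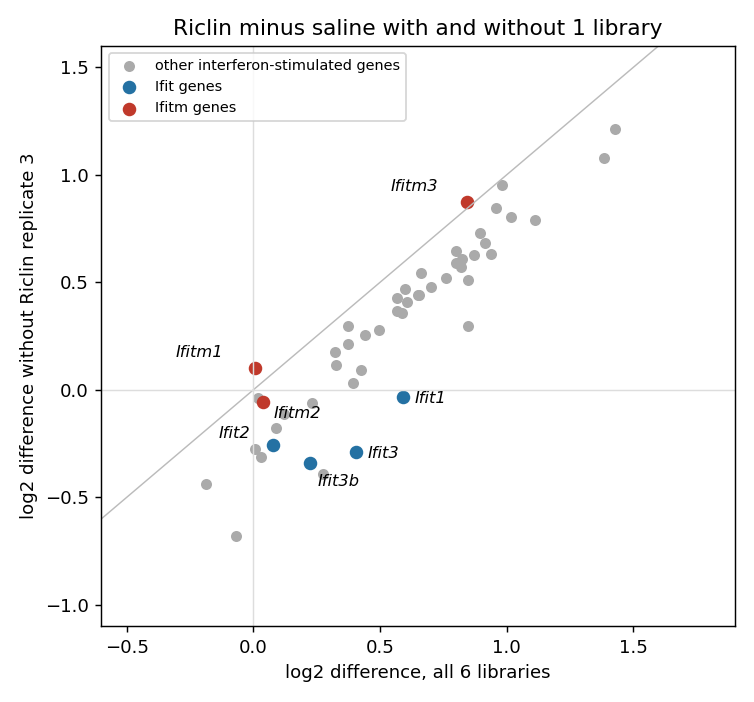
Log2 difference, Riclin minus saline, in all 6 libraries (horizontal axis) and without Riclin replicate 3 (vertical axis), for the 7 genes and 43 other interferon-stimulated genes; the diagonal marks equal values. Ifitm3 lies just above it (0.84 and 0.87), whereas Ifit1 lies at 0.59 and -0.03.

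Genes whose products modify or bind IFITM and IFIT proteins were split in direction. Of 7 IFITM regulators 4 were higher and 3 lower, and 0 passed the adjusted threshold. Zdhhc20, which adds palmitate to IFITM3, differed by -0.33 (SE 0.169), and the tetraspanins Cd81 and Cd9 by 0.14 and -0.14. Of 4 tested IFIT partners 2 were higher and 2 lower. The translation initiation subunits Eif3c and Eif3e differed by 0.19 and -0.11, and the cap methyltransferases Rnmt and Cmtr2 by 0.10 and -0.10.

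Among tested genes outside the families, the pattern of the 4 Ifit genes was most like that of Usb1, an enzyme that trims U6 RNA (r = 0.986 over 6 libraries). Next came Emc6 of the endoplasmic reticulum membrane complex (0.979), the receptor Slamf9 (0.977), the Mediator subunit Med28 (0.976) and cytochrome c, Cycs (0.976). In all, 23 genes had r of at least 0.95. Usb1 ranged only from 6.85 to 10.5 FPKM, so that likeness of order did not mean likeness of size. Pairs of the 3 Ifitm genes had r of -0.67 to 0.20, and -0.42 to 0.59 without Riclin replicate 3, so their mean stands for no shared pattern. Its difference between the groups is mostly that of Ifitm3 (log2 difference 0.84, against 0.01 for Ifitm1 and 0.04 for Ifitm2). The mean of the 3 Ifitm genes was most like Hcn2, an ion channel gene (0.987). Then came Tent5b (0.979), C2cd3 (0.975), Alkbh1 (0.972) and Lrrc28 (0.965), and 15 genes reached 0.95. None of the 10 genes named as most alike was in the lists above. They ranked highest among 11738 tested genes over only 6 libraries, and unrelated genes can reach such r. How many would do so was not computed.

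Summed markers of B and plasma, T and NK, and plasmacytoid dendritic cells did not overlap between the treatments, with Riclin lower. The macrophage and neutrophil sums overlapped. Over all 11738 tested genes, groups did not overlap with Riclin lower for 355, and with Riclin higher for 955 (8.14%). The summed FPKM of 5 B and plasma cell markers was 24.7 to 35.6 with saline and 9.43 to 12.005 with Riclin. Of these, Cd79b and Jchain did not overlap, whereas Cd79a, Ms4a1 and Mzb1 overlapped. In saline replicate 2, Jchain made up 21.0 of the sum of 24.7, and Cd79a, Ms4a1 and Mzb1 read 1.36, 0.308 and 0.521. The summed FPKM of 7 T and NK cell markers was 4.46 to 13.1 with saline and 2.78 to 3.55 with Riclin. The T cell markers Cd3d, Cd3e, Cd3g and Cd8a did not overlap. The T cell marker Cd4 did, at 1.34 to 2.61 with saline and 0.789 to 1.88 with Riclin. The NK markers Ncr1 and Klrb1c also overlapped, with higher means in Riclin (0.425 against 0.311, and 0.146 against 0.0627). Of the 7, only Cd3g and Cd4 passed the filter, and Cd8a had 1 to 103 reads per library. The 5 plasmacytoid dendritic markers summed to 2.12 to 2.79 with saline and 1.32 to 2.01 with Riclin. Of these 5, only Tcf4 passed the filter, and it overlapped, at 0.989 to 1.29 FPKM over all 6 libraries. Siglech, Pacsin1 and Cox6a2 overlapped as well. Ccr9 did not, but had only 1 to 18 reads per library. The 7 macrophage markers summed to 286 to 350 with saline and 234 to 330 with Riclin, a sum led by Lyz2 (means 164 and 129). Of these 7, 5 were higher in Riclin, with a median log2 difference of 0.14, and Adgre1 did not overlap (5.54 to 6.44 and 6.75 to 9.53). The 5 neutrophil markers summed to 3.46 to 7.15 with saline and 5.97 to 9.91 with Riclin, with the defining marker Ly6g at 0 in 5 libraries. The forestomach squamous sum was 59.7 to 241 with saline and 209.8 to 295 with Riclin, and the endothelial sum was 39.4 to 44.4 over all 6. The part of these cell types in the values of the 7 genes was not tested.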

How the data were processed

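The authors deposited 1 table of FPKM values for 23550 gene symbols in 6 stomach libraries, made with TRIzol RNA and a VAHTS Universal V6 kit per the labels' protocols. Per the submitters' processing notes, mm10 and Bowtie2 were used, with no role or version. No counter, annotation or strand setting is named, and each is thus not given in the sources used here. Groups come from the treatment labels and replicate numbers from the titles.

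Because FPKM values are read numbers divided by length and total, reads were recovered as whole numbers for 23548 genes (relative tolerance 1e-09), giving totals of 30884067 to 40050267, and they were used for depth and for 1 alternative fit. The 11738 genes that reached an FPKM of 1 in 3 or more libraries were compared on the log2(FPKM + 1) scale by limma 3.58.1 (R 4.3.3), with an intensity trend, no covariate, two-sided tests and Benjamini-Hochberg adjustment over all tested genes at 0.05. The fit and the recovery were tested on simulated data. The members and lists were chosen with earlier results of these data known.

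The text names all members and relatives, every tested gene of lists with up to 6 tested members, the 3 with the smallest unadjusted p in longer lists, and the 5 genes most like each family mean, predicted symbols left out, and 1 gene that this rule takes is not reported here. Alternatives were upper-quartile or median-of-ratios scaling, an FPKM filter at 5 or none, a pseudocount of 0.1, removal of 20 pancreatic genes, a robust variance prior, voom on recovered reads, the replicate block, each library left out, and Riclin replicate 3 with saline replicate 1 left out. Shared stretches came from GENCODE M21 transcripts, and promoters from RefSeq (GRCm38.p6). A planned comparison of protein sequences was not run. Figures were drawn with matplotlib 3.10.9 (Python 3.11.15).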

Additional observations from a re-analysis of the deposited data

How the results depend on the processing

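No member passed the adjusted threshold under any of the 16 alternatives. Over all genes the count was 0, against 2 with the robust variance prior (Clca1 and Gm52608, named after their values were seen) and 0 to 1 with each library left out in turn (Cd79b without saline replicate 2). The Ifit median log2 difference ran from -0.27 to 0.80 with 1 library left out and from -0.29 to 0.41 otherwise, and its sign differed in 4 of 16, among them the fits without Riclin replicate 3 or saline replicate 4. The Ifitm median ran from -0.01 to 0.10. Ifitm3 kept its sign in all 16. Median-of-ratios scaling moved the median of all genes from 0.04 to -0.00. The replicate block gave -0.29 for the Ifit median and 0.81 for Ifitm3, and its log2 differences equal those without Riclin replicate 3 and saline replicate 1, since only numbers 2 and 4 occur in both groups. Same-numbered libraries correlated at 0.22 and 0.01 in their deviations, so the numbers were not taken to pair them. The filter at an FPKM of 5 left Ifit2 untested. With 3 libraries a group, the SE of the Ifit differences, up to 0.644, limits what could be seen.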

Other observations

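Some other interferon-stimulated genes, picked after their values were seen, shared features of the Ifit pattern across libraries. Rsad2, the antiviral enzyme viperin, read 7.71, 13.1 and 9.13 FPKM with saline and 7.82, 22.8 and 4.13 with Riclin, a log2 difference of -0.07 (SE 0.499), and -0.68 without Riclin replicate 3. Cmpk2, its neighbour in the genome and a nucleotide kinase, read 8.53, 11.4 and 8.11 with saline and 8.03, 15.8 and 6.56 with Riclin. Both were highest in Riclin replicate 3 and, among the saline libraries, in saline replicate 2.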
